A study of Homo sapiens with 30 samples.

Results

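Wild-type peak cluster 2 is a set of 2627 regions, each 500 bp wide, out of 22974 regions that the authors deposited in 9 clusters of wild-type ATAC-seq peaks. ATAC-seq measures open chromatin, since a transposase inserts sequencing adapters where DNA is accessible. The members are all regions of the deposited file whose name carries the number 2; the number written inside that file is 9, and clusters are called here by the numbers of the file names. The sources used here do not say how accessibility along the course defined the cluster. The cells were HUES8, an established human embryonic stem cell line. HNF6 knockout cells, which lack ONECUT1, and wild-type control cells were both put through the same in vitro pancreatic differentiation. The labels give 30 samples, 3 per genotype at each of 5 stages. The stages are undifferentiated cells (ESC), definitive endoderm (DE), primitive gut tube (GT), then PE, the pancreatic endoderm, and last PP, the pancreatic progenitors. Neither the number of knockout clones nor whether the 3 samples of a group were differentiated independently is stated in the labels, so their spread may be only technical. Library totals are not given in the files, so depth is unknown.

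ONECUT1, also called HNF6, binds DNA through a cut domain and a homeodomain and acts in the developing pancreas, liver and bile ducts. Definitive endoderm arises from pluripotent cells under Nodal or Activin signals, and pioneer factors of the FOXA and GATA families open distal enhancers there before later lineage factors bind. Many such enhancers stay accessible or are used again when the pancreatic endoderm forms, a stage at which PDX1 marks the organ's progenitors. The genes and the DNA sequence under the members were not analysed here, so regions are given by their hg19 position.

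The authors deposited 2 lists per stage. The knockout list holds regions more accessible in knockout than in control cells, and the control list holds regions more accessible in control cells, that is, lower in the knockout. Members that overlapped a list region by 1 bp or more counted as listed. Of the 2627 members, 677 (25.8%, 95% Wilson interval 24.1 to 27.5) overlapped at least 1 of the 10 lists, against 40.0% of the regions of the other 8 clusters and 38.4% of all 22974. Cluster 9, with 23.3%, was the one cluster with a lower share. The remaining 1950 members were in no list. All intervals cover counting error only, and regions are not replicates of a condition, so shares are described and not tested.

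Listed members were mostly lower in the knockout at DE and PE, and mostly higher in the knockout at ESC and PP. At DE, 72 members (2.74%, 2.18 to 3.44) were in the knockout list, which took 5.69% of all cluster regions. In the control DE list there were 194 members (7.38%, 6.45 to 8.45), against 4.99% of all cluster regions. At PE the knockout list held 34 members (1.29%, 0.928 to 1.80), against 3.97% of all cluster regions. The control PE list held 149 (5.67%, 4.85 to 6.62), against 6.44% of all cluster regions, so that this share was slightly below the background. At PP the knockout list held 184 members (7.0%, 6.09 to 8.04), against 11.1% of all cluster regions. The control PP list held 12 (0.457%, 0.261 to 0.797), against 2.47%.

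Few members were listed at the other stages. At ESC 62 members (2.36%) were in the knockout list and 11 (0.419%, 0.234 to 0.748) in the control list, against 3.73% and 5.38% of all cluster regions. The control ESC share was the lowest of the 9 clusters. At GT 41 members (1.56%) were in the knockout list and 27 (1.03%) in the control list, against 1.86% and 2.49% of all cluster regions. The control DE list was the only one of the 10 in which the share of cluster 2 lay above that of all cluster regions.

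**Figure D1:**
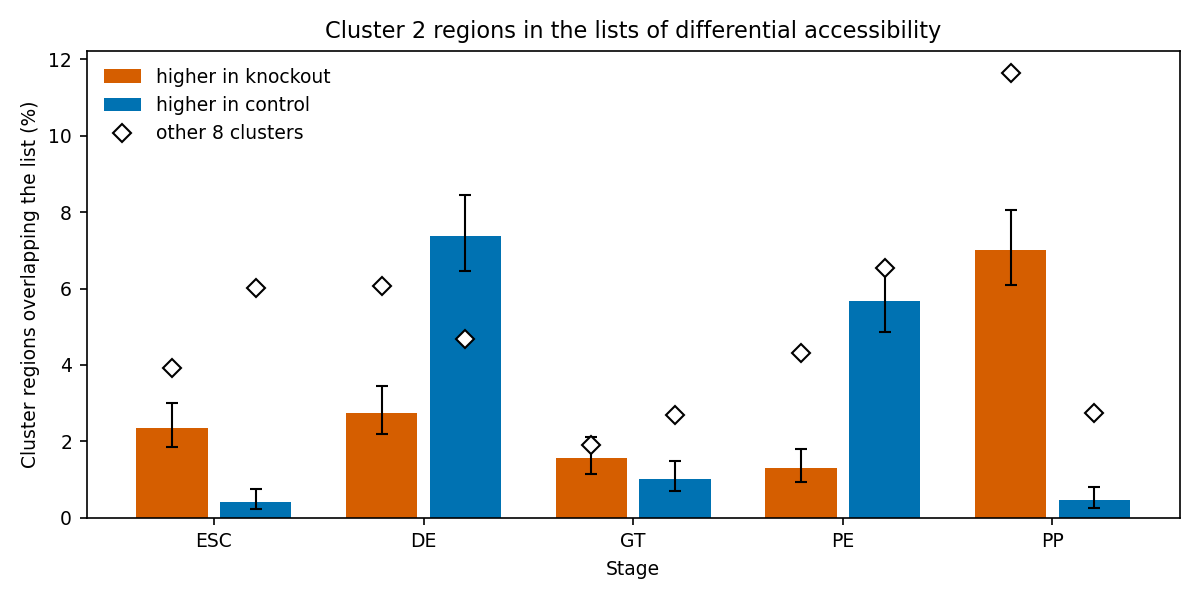
Share of cluster 2 regions (percent, bars with 95% Wilson intervals) that overlap the knockout list and the control list at each stage, with the share of the other 8 clusters as white diamonds. The control DE bar, 7.38%, is the one bar above its diamond, and the control bars at ESC and PP are below 0.5%.

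The balance between genotypes within the cluster therefore changed from stage to stage. No member was in both lists of one stage. Of the members listed at DE, 72.9% (67.3 to 77.9) were in the control list, against 43.5% in the other 8 clusters and 37.2% over the full lists. At PE the control list held 81.4% (75.2 to 86.4), against 60.3% in the other clusters and 56.1% over the full lists. At ESC it held 15.1% (8.63 to 25), against 60.7% and 42.6%. At GT it held 39.7% (28.9 to 51.6), against 58.5% and 27.0%. At PP it held 6.12% (3.54 to 10.4), against 18.9% and 11.3%. Clusters 4 and 8 leaned to control at PE as far as cluster 2 did, with 83.6% and 82.6%, and cluster 9 did so at DE, with 84.8%. The clusters and the lists may rest on the same control libraries, so a lean to one genotype is given as a description only.

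The lists differ in length, from 2789 regions for control GT to 24770 for knockout PP, so counts were also taken at one length. With every list held to its 2789 regions of lowest p, the knockout DE list held 29 members and the control DE list 97. At ESC the counts were 12 and 2, at PE 18 and 73, and at PP 33 and 12. At GT they were 16 and 27, so that the balance at GT turned from the knockout list to the control list when the lists were of one length. At this equal length cluster 2 had 3.69% (3.04 to 4.48) in the control DE list, against 2.58% (2.37 to 2.80) in the other 8 clusters. In the knockout PP list it had 1.26%, against 2.53% in the other clusters.

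Set beside clusters 4, 8 and 9, cluster 2 combined a share at DE with a share at PE, which cluster 5 also did. Cluster 9 had a higher share in the control DE list, 11.7% (10.8 to 12.6), but 1.02% (0.770 to 1.35) in the control PE list. Clusters 8 and 4 had 18.4% and 16.4% in the control PE list, but 1.52% and 1.19% in the control DE list. Cluster 2, with 7.38% and 5.67%, ranked 2 of the 9 clusters at DE and 4 at PE. Cluster 5 lay closest to it, with 5.09% (3.70 to 6.97) and 4.38% (3.11 to 6.16), and both its intervals overlap those of cluster 2. The comparisons of direction, ratio and width given here do not show cluster 5 apart.

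**Figure D2:**
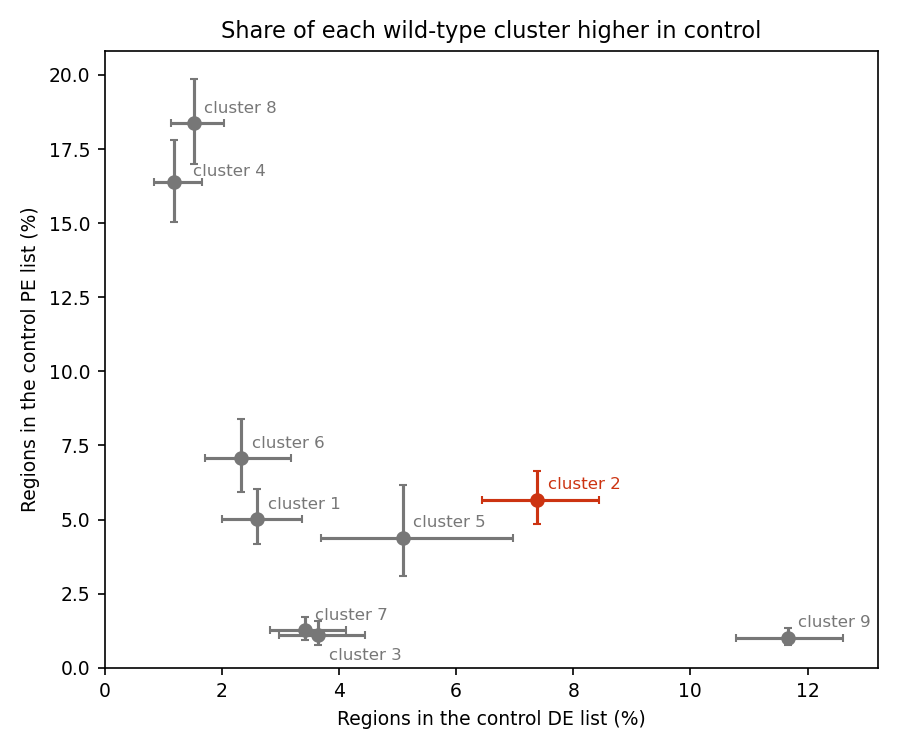
Share of each cluster's regions in the control DE list (x axis, percent) and in the control PE list (y axis, percent), with 95% Wilson intervals. Cluster 2, in red, lies between cluster 9 on the right and clusters 4 and 8 at the top.

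Few members were lower in the knockout at both DE and PE. Of the 194 members in the control DE list and the 149 in the control PE list, 7 were in both, 3.61% of the DE number and 4.70% of the PE number. Over the whole cluster 5.67% of members were in the control PE list and 7.38% in the control DE list, so neither list held more of the other's members than the cluster did. Of those in the control DE list, 160 were in no other list, and of those in the control PE list, 120 were in no other list. The higher share of cluster 2 in the control DE list was seen in 16 of 23 chromosomes when each was compared with the other clusters' regions on it. In the control PE list the share of cluster 2 was above that of the other clusters in 6 of 23 chromosomes, and in the knockout PP list in 3.

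Each list region carries 3 values per genotype, a log2 ratio and a p, all made by the authors. The log2 ratio is control over knockout, so that a positive one means lower in the knockout. They are called values because it is unstated whether they are read counts or were scaled. Every region of a list was chosen by the authors for its difference, with a -log10 p of at least 5, so values and ratios describe the listed members and support nothing further. With 3 values against 3, a two-sided exact permutation test of 1 region cannot give a p under 0.1.

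At DE, the members lower in the knockout had signal in both genotypes and less of it in the knockout. In the authors' deposited table, the 187 control DE regions that hold the 194 members had a median knockout mean of 150 and a median control mean of 276. Their median log2 ratio was 0.85, with quartiles of 0.65 and 1.00. A 2-fold ratio or more was found in 47 of them (25.1%), against 57.4% of the whole list. The 3 knockout values all lay below the 3 control values in 148 of the 187 (79.1%), against 79.9% of the whole list. Thus the listed members had higher values and smaller ratios than the list as a whole. The whole list had median means of 77.0 and 164 and a median ratio of 1.09. The same held at clusters 4, 8 and 9, with median log2 ratios of 0.98, 0.78 and 0.855 in the authors' deposited table. Cluster 9 was closest to cluster 2, with median means of 153 in knockout and 288 in control over 525 regions.

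The first control DE region at members by the authors' p was at chromosome 6, 9398101 to 9399050. There the authors' deposited table lists 125, 130 and 104 in the knockout samples, against 352, 242 and 318 in the control samples, a log2 ratio of 1.34 with a -log10 p of 15.7. At chromosome 2, 54315101 to 54316400, the authors' deposited table gives 353, 257 and 332 in the knockout samples, against 645, 545 and 550 in the control samples, a log2 ratio of 0.88. The groups did not overlap in either region. At chromosome 5, 38339401 to 38340400, the values were 186, 185 and 281 in the knockout samples, against 506, 400 and 417 in the control samples (authors' deposited table), a log2 ratio of 1.02. In all 3 regions the lowest control value was above the highest knockout value.

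The members higher in the knockout at DE lay in broad regions with high values in both genotypes. The 70 knockout DE regions at members had, in the authors' deposited table, a median knockout mean of 598 and a median control mean of 397, against 272 and 153 over the whole list. Their median width was 1475 bp, against 1000 bp over the whole list and 1400, 1550 and 1450 bp at clusters 4, 8 and 9. Their median log2 ratio in the authors' deposited table was -0.56, against -0.66, -0.57 and -0.55 at those clusters, so cluster 2 was like them in both. Of the regions at members, 1 of the 70 reached 2-fold (1.43%), against 33.9% of the whole list. The 2 genotypes' values did not overlap in 52 of them (74.3%), against 76.1% of the whole list.

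The leading region was at chromosome 15, 70153601 to 70155400, with 758, 716 and 1015 in the knockout samples, against 602, 391 and 525 in the control samples (authors' deposited table). Its log2 ratio was -0.71 with a -log10 p of 14.8. At chromosome 22, 43195101 to 43198100, the authors' deposited table gives 1422, 1296 and 1220 in the knockout samples, against 771, 998 and 932 in the control samples, a log2 ratio of -0.54. Both regions had all knockout values above the control values. So had the next, at chromosome 17, 26792701 to 26794300, where the authors' deposited table gives 700, 675 and 820 in the knockout samples, against 491, 434 and 419 in the control samples, a log2 ratio of -0.71.

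At PE, the members lower in the knockout had somewhat higher values than those at DE and a similar size of difference. The whole control lists had the same rise in the authors' deposited tables, from median means of 77.0 and 164 at DE to 127 and 247 at PE. Depth and scaling are unknown, so values of 2 stages cannot be compared in level. The 147 control PE regions at members had, in the authors' deposited table, a median knockout mean of 221 and a median control mean of 372, with a median log2 ratio of 0.82 (quartiles 0.59 and 1.06). Ratios of at least 2-fold numbered 41 (27.9%), against 45.7% of the whole list, and the values did not overlap in 111 (75.5%), against 79.5%. The control PE regions at cluster 4 and cluster 8 had smaller median ratios in the authors' deposited table, 0.63 and 0.59. They also had higher median control means there, 530 and 706, so the cluster 2 regions had lower values and larger ratios than these 2 clusters. Cluster 9 was like cluster 2 in its ratio, with a median of 0.85 over 47 regions and a lower median control mean, 290. Whether the level sets the size of the ratios was not tested.

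The leading control PE region was at chromosome 17, 10839701 to 10841150. There the authors' deposited table lists 384, 366 and 356 in the knockout samples, against 629, 579 and 965 in the control samples, a log2 ratio of 0.97 with a -log10 p of 23.7. At chromosome 11, 28944151 to 28945250, the authors' deposited table gives 317, 243 and 249 in the knockout samples, against 500, 522 and 707 in the control samples, a log2 ratio of 1.09. The groups did not overlap in either region, and in both the third control value was the highest.

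The third control value at PE was high over the members in general. In the authors' deposited table the medians of the 3 control values over the 147 control PE regions were 321, 369 and 429, and over the 34 knockout PE regions at members they were 414, 412 and 494. Over the whole knockout PE list they were 321, 329 and 335, so the third control value stood out more at these members than over that list. Over the whole control PE list they were 225, 256 and 266, so that the first control value was the low one there. Without the third control value the median log2 ratio computed from the authors' deposited table was 0.71 in place of 0.82 in the control PE list and -0.58 in place of -0.53 in the knockout PE list.

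The 34 members higher in the knockout at PE had the smallest median difference of the 10 lists, a log2 ratio of -0.53 in the authors' deposited table. None of their 34 regions in the authors' deposited table reached 2-fold, against 23.3% of the whole list. Knockout and control values were fully apart in 20 of them (58.8%), against 74.9% of the whole list. Without the third control value that number was 28. At chromosome 9, 34939951 to 34940950, the authors' deposited table gives 760, 534 and 582 in the knockout samples, against 284, 337 and 491 in the control samples, a log2 ratio of -0.75. At chromosome 19, 6659951 to 6662000, the values were 1329, 1018 and 868 in the knockout samples, against 642, 656 and 900 in the control samples (authors' deposited table), a log2 ratio of -0.55. In that second region the highest control value lay above the lowest knockout value. Clusters 4 and 8 had similar or smaller median log2 ratios in this list, -0.47 and -0.42 in the authors' deposited table. At them 1 of 85 and 0 of 107 regions reached 2-fold, and the values were fully apart in 49 and 59. Cluster 9 had a median of -0.64, with 4 of 37 regions at 2-fold and 31 fully apart.

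At PP nearly all listed members were higher in the knockout. The 185 knockout PP regions at members had, in the authors' deposited table, a median knockout mean of 272 and a median control mean of 147, with a median log2 ratio of -0.90 (quartiles -1.12 and -0.74). The ratio reached 2-fold in 65 (35.1%), against 56.8% of the whole list, and the values did not overlap in 151 (81.6%), against 79.4%. The median log2 ratio was -0.88 at cluster 4 regions, -0.96 at cluster 9 regions in the authors' deposited table and -0.66 at cluster 8 regions. Cluster 2 was thus close to clusters 4 and 9 and apart from cluster 8. The first of the 3 knockout values was the highest at the members, with medians of 316, 254 and 257, and over the whole list too, with 202, 156 and 159, in the authors' deposited table.

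The leading region was at chromosome 10, 47127751 to 47130750. There the authors' deposited table lists 2386, 1660 and 2329 in the knockout samples, against 1381, 1433 and 1136 in the control samples, a log2 ratio of -0.69 with a -log10 p of 39.1. At chromosome 13, 114426901 to 114428400, the authors' deposited table gives 699, 499 and 643 in the knockout samples, against 207, 299 and 272 in the control samples, a log2 ratio of -1.24. Neither region had overlapping values. Among the 12 members lower in the knockout at PP, the leading region was at chromosome 2, 42290901 to 42292200. The authors' deposited table gives 219, 213 and 360 in the knockout samples, against 397, 513 and 416 in the control samples there, a log2 ratio of 0.74. At chromosome 6, 33515201 to 33515750, the values were 25, 73 and 49 in the knockout samples, against 127, 105 and 150 in the control samples (authors' deposited table), a log2 ratio of 1.36. Again the groups did not overlap.

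At ESC, before differentiation began, the members higher in the knockout had low values and large ratios. The 61 knockout ESC regions at members had, in the authors' deposited table, a median knockout mean of 155 and a median control mean of 72, and the ratio reached 2-fold in 38 (62.3%), against 45.6% of the whole list. Their median log2 ratio was -1.10, the largest in size of the 10 lists at cluster 2, and the values did not overlap in 52 (85.2%), against 77.7% of the whole list. An example with low values was chromosome 9, 101136851 to 101137650, where the authors' deposited table gives 204, 175 and 243 in the knockout samples, against 65, 89 and 55 in the control samples, a log2 ratio of -1.56. The leading region by p had high values, at chromosome 6, 13013601 to 13015750, with 1326, 1394 and 1099 in the knockout samples, against 831, 765 and 962 in the control samples (authors' deposited table). Its log2 ratio was -0.58, and in neither region did the groups overlap.

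The 11 members lower in the knockout at ESC were led by chromosome 11, 76499151 to 76500400. The authors' deposited table gives 222, 271 and 283 in the knockout samples, against 450, 365 and 449 in the control samples there, a log2 ratio of 0.70. The next, at chromosome 20, 55984001 to 55986850, had 581, 312 and 511 in the knockout samples, against 637, 861 and 530 in the control samples (authors' deposited table), a log2 ratio of 0.53. In this region the lowest control value lay below the highest knockout value. Over the 11 list regions of these members the values did not overlap in 8 (72.7%), against 73.9% of the whole list.

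At GT the leading region higher in the knockout was at chromosome 2, 98279351 to 98281150. There the authors' deposited table lists 1120, 1267 and 898 in the knockout samples, against 819, 705 and 766 in the control samples, a log2 ratio of -0.52. It was followed by chromosome 11, 76477151 to 76481400, with 866, 1330 and 998 in the knockout samples, against 747, 807 and 705 in the control samples (authors' deposited table), a log2 ratio of -0.50. Both were wide regions of high value whose groups did not overlap. Lower in the knockout at GT was chromosome 20, 17118601 to 17119200, with 55, 39 and 54 in the knockout samples, against 145, 144 and 125 in the control samples (authors' deposited table), a log2 ratio of 1.47. At chromosome 6, 90232351 to 90233100, the authors' deposited table gives 169, 156 and 133 in the knockout samples, against 308, 361 and 188 in the control samples, a log2 ratio of 0.90. These groups did not overlap either, although the third control value at chromosome 6 was close to the knockout values. Over the 41 knockout and the 26 control GT regions at members, the median log2 ratios in the authors' deposited table were -0.87 and 0.78. The values did not overlap in 32 of the 41 (78.0%), against 82.5% of the whole knockout GT list, and in 22 of the 26 (84.6%), against 82.7% of the whole control GT list.

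**Figure D3:**
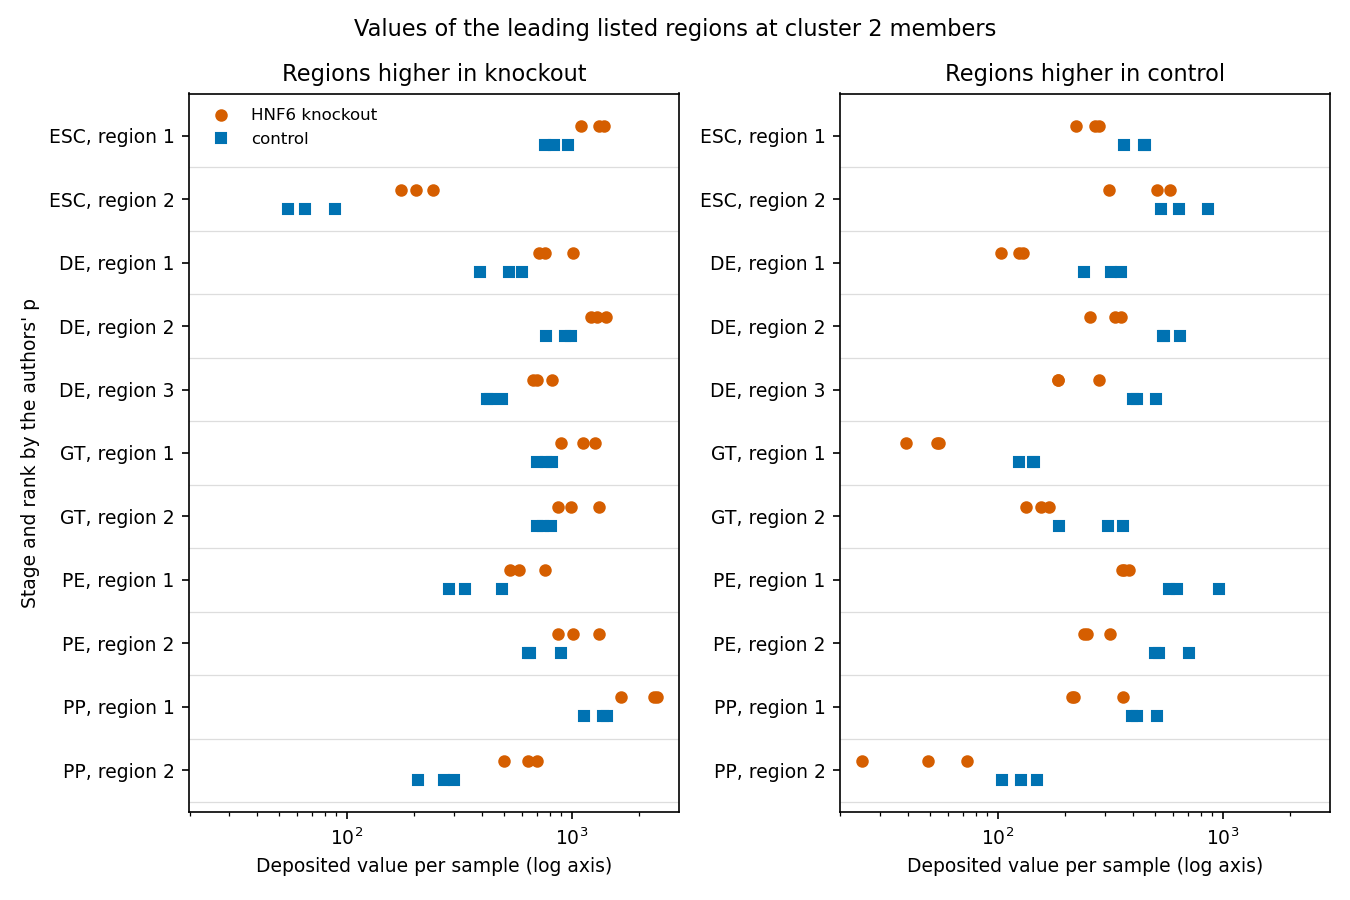
Deposited values of the 3 knockout samples (orange circles) and the 3 control samples (blue squares), on a log axis, in the leading list regions at cluster 2 members by the authors' p, 3 for each DE list and 2 for each other list. The values of the genotypes do not overlap in 20 of the 22 regions; the exceptions are region 2 of the control ESC list and region 2 of the knockout PE list.

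Most listed members differed at a single stage. Of the 677, 573 were listed at 1 stage, 99 at 2 and 5 at 3. Members at 2 or more stages made up 3.96% of the cluster (104), against 8.94% of the other 8 clusters and 8.37% of all cluster regions. Among the 99 at 2 stages, 34 were higher in the knockout at both, 18 were lower in it at both, and 47 went opposite ways. The lists with the most members, control DE (194) and knockout PP (184), are themselves of opposite direction. This split was not computed for the other clusters or set against list sizes, so it is a description only. The lists of different stages share no libraries.

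The most frequent pair was knockout PP with control DE, with 15 members, and these 2 lists also held the most members. The 15 were 8.15% of the members in the knockout PP list and 7.73% of those in the control DE list, near the shares of the whole cluster, 7.38% in the control DE list and 7.0% in the knockout PP list. In the authors' deposited tables their log2 ratios ran from -1.70 to -0.57 at PP, with a median of -0.95, and from 0.36 to 1.51 at DE, with a median of 0.66. The values did not overlap in 13 of the 15 at PP and in 11 of the 15 at DE. Over the whole lists this held for 79.4% of knockout PP and 79.9% of control DE regions. On chromosome 5 the member at 38339385 to 38339884 is one of the 15 and overlaps the DE region named above. At PP its region, 38339851 to 38340400, had 130, 113 and 133 in the knockout samples, against 43, 44 and 27 in the control samples (authors' deposited table), a log2 ratio of -1.70. There the knockout values were all above the control values, whereas in the DE region they were all below. The PP region starts close to the end of the member and covers only that edge. Its values therefore come mostly from sequence beside the member, while the DE region covers nearly all of the member.

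A second frequent pair of opposite direction was knockout ESC with control DE, with 8 members. They were 12.9% of the members in the knockout ESC list and 4.12% of those in the control DE list. Over the whole cluster 7.38% of members were in the control DE list and 2.36% in the knockout ESC list. One of the 8 was the chromosome 9 region named at ESC. At DE its region, 101136851 to 101137750, had 213, 136 and 187 in the knockout samples, against 345, 267 and 277 in the control samples (authors' deposited table), a log2 ratio of 0.73. Pairs of one direction were led by knockout DE with knockout PP (9 members, 12.5% of the members in the knockout DE list). Next was knockout PE with knockout PP (8 members, 23.5% of the members in the knockout PE list). Over the whole cluster 7.0% of members were in the knockout PP list. Control PE and control PP shared 3 members, 2.01% of the PE number and 25% of the PP number. Over the whole cluster 0.457% of members were in the control PP list and 5.67% in the control PE list. The shares of these pairs rest on few members and were not tested. Control DE and control PP shared none.

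**Figure D4:**
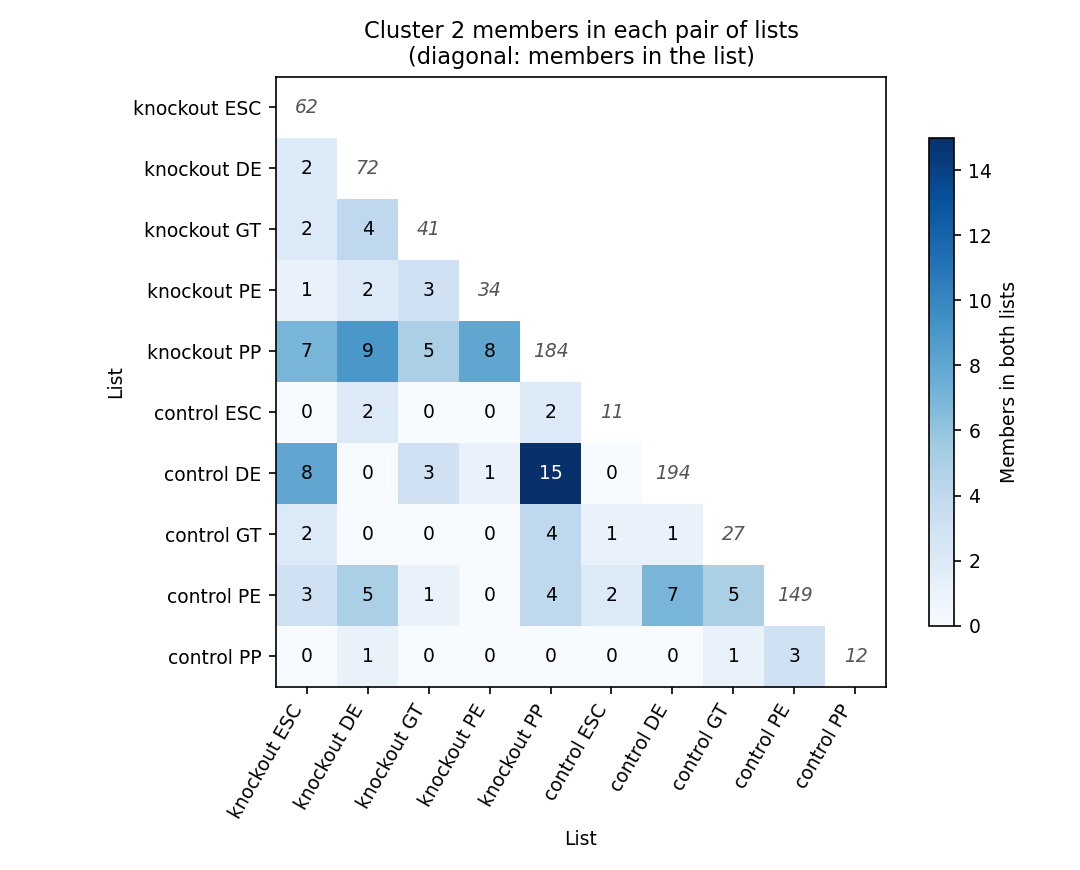
Number of cluster 2 members that lie in both lists of each pair, with the number in each list on the diagonal in italics. The darkest cell, 15, is knockout PP with control DE, while control DE with control PE holds 7.

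The 7 members lower in the knockout at both DE and PE were all below 2-fold at DE, while some were past it at PE. In the authors' deposited tables their log2 ratios ran from 0.37 to 0.97 at DE and from 0.56 to 1.70 at PE. The values did not overlap in 5 of 7 at DE and 6 of 7 at PE, against 79.9% and 79.5% of the whole lists. At chromosome 7, the DE region 9498651 to 9499700 had 175, 139 and 122 in the knockout samples, against 296, 245 and 307 in the control samples (authors' deposited table). The PE region inside it, 9499151 to 9499450, had 25, 34 and 23 in the knockout samples, against 84, 61 and 101 in the control samples (authors' deposited table). Both had complete separation, with log2 ratios of 0.95 at DE and 1.55 at PE in the authors' deposited tables. This member was chosen as an example after its values were seen.

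The 5 members listed at 3 stages were few enough to be given in full, and were picked after their values were seen. At chromosome 2, the member at 98279004 to 98279503 was higher in the knockout at ESC, DE and GT, with log2 ratios of -0.40, -0.59 and -0.52 in the authors' deposited tables and no overlap of values at any of them. Another, at chromosome 15, 94372596 to 94373095, was higher in the knockout at DE, PE and PP, with -0.42, -0.53 and -0.73 in the authors' deposited tables, and its groups overlapped at DE and PE. A similar one, at chromosome 17, 42621111 to 42621610, was higher in the knockout at GT, PE and PP, with -0.90, -0.38 and -0.44 in the authors' deposited tables and overlap at GT and PE. Thus 3 of the 5 kept one direction, each towards the knockout.

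The other 2 changed direction. On chromosome 1 the member at 54874922 to 54875421 had 178, 123 and 226 in the knockout samples, against 249, 272 and 328 in the control samples at ESC in the authors' deposited table. At DE its region had 1197, 1456 and 1415 in the knockout samples, against 1093, 742 and 1096 in the control samples (authors' deposited table), and at PE 485, 469 and 475 in the knockout samples, against 842, 550 and 621 in the control samples. The knockout was therefore lower at ESC and PE and higher at DE, with no overlap at any of the 3 stages. On chromosome 8 the member at 121821865 to 121822364 was lower in the knockout at DE and GT and higher at PP, with log2 ratios of 0.66, 0.77 and -0.85 in the authors' deposited tables. Its groups overlapped at GT.

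The place of a member among other wild-type regions also differed between lists. The nearest cluster region of any kind was a median of 22373 bp away from a cluster 2 member, measured from start to start, which is the second highest distance after cluster 9 (23359 bp); cluster 6 had the shortest, 3381 bp. Members in no list had a median of 25073 bp, and those in the control DE list 29364 bp (quartiles 1948 and 85772 bp). Members in the knockout PE list lay closer to their neighbours, with a median of 2173 bp, and 55.9% of these 34 had one within 5 kb, against 28.9% of the whole cluster. In the knockout DE list the median was 9916 bp, in the control PE list 12736 bp and in the knockout PP list 11944 bp. The quartiles of these groups overlap widely.

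The nearest neighbour of a member was most often a cluster 9 region (29.4%), then another cluster 2 region (20.2%), then cluster 4 (13.4%) and cluster 8 (12.1%), while these clusters made up 20.5%, 11.4%, 11.7% and 12.3% of all cluster regions. Regions of clusters 1 and 6 were the nearest neighbour of 3.73% and 2.74% of members, though they made up 9.20% and 7.27% of all cluster regions. For members in the control DE list the nearest neighbour was in cluster 9 for 36.6%, and for members in the control PE list for 26.2%. In clusters 4 and 8 it was for 13.9% and 12.9% of the control DE members and for 17.4% and 14.8% of the control PE members.

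Most list regions reached the centre of the member they overlapped. In the control DE list the centre of the member lay inside the list region in 189 of 194 cases, and in the control PE list in 137 of 149. In the knockout lists of ESC, GT and PP this held for 51 of 62, 34 of 42 and 151 of 186 pairs of member and list region. For the knockout lists of DE and PE it was 61 of 72 and 32 of 34. The control lists of ESC, GT and PP had 8 of 11, 21 of 27 and 10 of 12, so the fit did not divide by genotype. At the other pairs the list region reached only part of one side. The list region also held a region of another cluster in 17 of 187 cases in the control DE list, in 10 of 34 in the knockout PE list and in 29 of 185 in the knockout PP list.

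**Figure D5:**
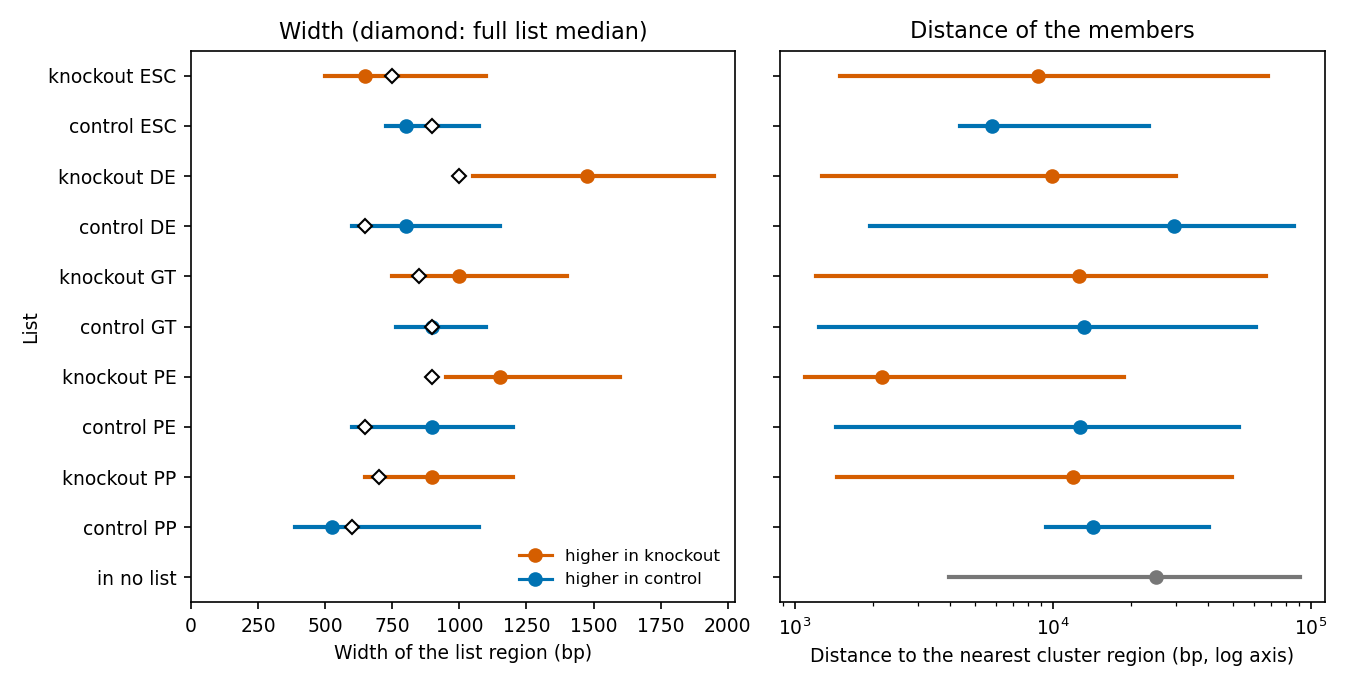
Left, median width (points, bp) of the list regions at cluster 2 members, with quartiles as lines and the median of the full list as a white diamond. Right, median distance (points, bp, log axis) from members to the nearest cluster region with quartiles; regions at members in the knockout DE list are the widest (median 1475 bp), and members in the knockout PE list the closest to a neighbour (2173 bp).

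Members lay on all autosomes and on chromosome X. Their share of all cluster regions was highest on chromosomes X (20 of 82), 18 (108 of 594, 18.2%) and 13 (89 of 555, 16.0%), and lowest on chromosomes 22 (21 of 595, 3.53%) and 19 (41 of 966, 4.24%). The DE balance differed between chromosomes. On chromosome 1 the knockout list held 12 of 209 members and the control list 3, on chromosome 17 it was 3 and 0 of 82, and on chromosome 22 it was 5 and 0 of 21. On chromosome 5 the knockout list held none of 199 members and the control list 23, and on chromosome 2 the numbers were 5 and 27 of 283. Over the full DE lists the control share was 15.8% on chromosome 1, 28.9% on chromosome 17, 4.85% on chromosome 22, 75.6% on chromosome 5 and 63.5% on chromosome 2. On these 5 chromosomes members and full lists leaned the same way. On others they did not: chromosome 8 had 2 knockout and 9 control members at a full-list control share of 18.5%, chromosome 4 had 2 and 13 at 29.3%, chromosome 14 had 3 and 6 at 18.1%, chromosome 11 had 8 and 11 at 20.1% and chromosome 16 had 2 and 6 at 32.7%. These chromosomes were picked after their values were seen, and the part of the chromosome in the counts above was not tested.

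At PE the members leaned to the control list on chromosomes 12 (0 knockout and 10 control) and 18 (0 and 11), where the full lists had control shares of 88.3% and 90.1%. On chromosomes 3 and 9 the members were even (5 and 4, and 4 and 4), where the full lists had control shares of 31.5% and 28.3%. On chromosomes 2, 16 and 20 the members leaned to the control list (2 and 14, 1 and 7, and 0 and 4). There the full lists had control shares of 49.0%, 43.2% and 46.5%. These chromosomes too were picked after their values were seen, and nothing was tested.

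Members were scattered, with few dense groups. In 1500 windows of 1 Mb that held any, the number reached 7 in 5 windows, against 45 windows for cluster 9, 34 for cluster 8 and 16 for cluster 4. That number was chosen after the counts per window were seen. The densest was on chromosome 18, 19000001 to 20000000, with 14 members between 19333982 and 19852460 among 26 cluster regions, the others being 6 of cluster 8, 4 of cluster 4, 1 of cluster 6 and 1 of cluster 9. Of these 14 members 12 were in no list, and the 2 at 19333982 and 19334961 were in the control DE list. The next window, on chromosome 15 from 70000001 to 71000000, held 9 members, of which 2, at 70154021 and 70177370, were in the knockout DE list and 1 in the knockout PP list. On chromosome 9, from 94000001 to 95000000, 2 of 8 members, at 94661456 and 94662381, were in the control GT list and 1 in the knockout PP list. In these windows most members were in no list, as were 74.2% of the members of the whole cluster.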

How the data were processed

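ATAC-seq had been done on 30 samples of HUES8 cells, 3 per genotype and stage. Per the submitters' processing notes, Bowtie2, MACS2 and hg19 were used; not given in the sources used here were versions, the differential caller and any read shifting. Cluster files, as deposited, hold positions only. For each region of a deposited list the authors give a log2 ratio, a -log10 p and 3 whole-number values per genotype. That log2 ratio was recomputed as control over knockout with 1 added to each mean, with differences below 1e-11. The set read as knockout is the one that is higher in the knockout lists. The authors' scaling is not stated, so no count model was run. Overlaps, shares with 95% Wilson intervals and medians were computed with Python 3.11.15, pandas 2.3.3 and scipy 1.17.1, and the code was tested on simulated lists. Regions were named by the authors' p, 3 per DE list and 2 per other list at members. The members, lists and rules were chosen with earlier results of these data known. Alternatives covered overlap rule, list length, separation of values, autosomes, 100 kb blocks, the number added and left-out values. Planned steps that need hg19 genes or sequence were not run.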

Additional observations from a re-analysis of the deposited data

Results flagged for a closer look

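In 5 of the members named above, the genotypes differed in opposite directions at different stages, with all 3 values of one genotype above all 3 of the other at each stage given. The difference between stages was not tested, and the log2 ratios, control over knockout, are from the authors' deposited tables. The member at chromosome 5, 38339385, had -1.70 at PP and 1.02 at DE, but its PP region covers only the edge of the member. On chromosome 9 the member at 101136822 had -1.56 at ESC and 0.73 at DE. On chromosome 8 the member at 121821865 had -0.85 at PP and 0.66 at DE. On chromosome 1 the member at 54874922 had -0.47 at DE, 0.68 at ESC and 0.49 at PE. On chromosome 11 the member at 76499443 had -0.46 at DE and 0.70 at ESC.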

How the results depend on the processing

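Under 236 combinations of result and alternative, 214 stayed within their limits and 22 moved. The limits are 1.5 times a count, the Wilson interval of a share and, for a median log2 ratio, the typical replicate SD of a single region. A median over regions varies less than a single region, so this last limit was wide. All 70 combinations for the size of the difference stayed within it, which therefore says little about their stability. In the control PE list the median SD of single regions was 0.28 in knockout and 0.29 in control samples (log2). A move of the median from 0.82 to 0.71 there counted as unmoved. With every list at 2789 regions, the control share per stage and the members at several stages were not scored. The 236 therefore leave out any change of balance at that length, such as the turn at GT given below. With each list split at its median p and the lower-p part kept, the members were, knockout list then control list, 38 and 3 at ESC, 45 and 114 at DE, 20 and 12 at GT, 18 and 96 at PE, and 111 and 5 at PP. There the control share at ESC was 7.32%, and members at several stages numbered 38. With every list at 2789 regions the counts that moved were 12 and 2 at ESC, 29 and 97 at DE, 16 in knockout GT against 27 in control GT, which turns the GT balance to control, 18 and 73 at PE, and 33 in knockout PP. With regions whose values did not overlap, 20 members were in the knockout PE list and 63 at several stages. These alternatives keep fewer regions by construction. Requiring more overlap or the centre, autosomes alone, 100 kb blocks, 10 added to each mean and each left-out value moved none; without 1 value the median log2 ratio ran from 0.79 to 0.88 in the control DE list and from 0.71 to 0.87 in the control PE list. No paired analysis was possible because the deposited values carry no replicate numbers and no test was run. Promoter windows, gene windows and the central sequence were not run. Unknown depth limits all values.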
